A study of Homo sapiens with 20 samples.

Results

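A fixed list of 32 genes whose transcripts are typical of blood cells was read in RNA-seq libraries of the human papillary thyroid cancer cell line TPC-1. The genes are LYZ, PTPRC, CD53, CD52, TYROBP, FCER1G, CD14, CSF1R, CD68, LAPTM5, FGR, LYN, PTPN6, LCP1, LCP2, CORO1A, ARHGDIB, MYO1G, PIK3R5, SPI1, AIF1, CTSS, ATP2A3, CD37, CD48, CD84, VAV1, DOCK2, PLEK, EVI2B, CYTIP and SASH3. They were taken by name, and all 32 were found among the 54261 rows of the count table. The list was chosen with earlier results of these data known. In the tested libraries, TPC-1 cells had been kept for 48 h alongside PMN-MDSCs, the polymorphonuclear type of myeloid-derived suppressor cell, which resembles an immature neutrophil and dampens T-cell responses. The control libraries came from untreated TPC-1 cells. Each group was sequenced both as RNA and as miRNA, with 6 coculture and 4 control libraries per assay. The sources used here do not give the origin of the PMN-MDSCs, the mode of coculture, or whether they were parted from the TPC-1 cells before lysis. They do not say that replicates were separate cultures, so p-values measure the spread between these libraries, which may be technical.

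Most of the 32 genes belong to the equipment shared by white blood cells. LYZ encodes lysozyme, a bactericidal enzyme of neutrophil and monocyte granules. PTPRC encodes CD45, the phosphatase on the surface of nucleated blood cells, and CD14 and CSF1R encode receptors of monocytes and macrophages. TYROBP (DAP12) and FCER1G are small adaptor proteins through which activating receptors signal in myeloid and natural killer cells. SPI1 encodes PU.1, a transcription factor of the ETS family that binds purine-rich sites with a GGAA core near many myeloid genes. A carcinoma line is not a usual source of most of these transcripts, although some members, such as CD68, LAPTM5 and LYN, are also made outside the blood lineage.

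Sequences of the promoters and of blood-cell miRNAs are shown as background. Levels of the miRNAs are read further on, while promoter matches are set only beside classes of control level. RefSeq (GRCh38.p14) held windows from 250 bases before to 50 bases after an annotated start for 24 of the 32 members. The 100 bases before the start of TYROBP (chr19:35908296-35908395, minus strand), LCP2 (chr5:170297778-170297877, minus strand) and VAV1 (chr19:6772608-6772707, plus strand) are given 5′ to 3′ on the gene's strand. Capitals mark GAGGAAGT or its reverse complement ACTTCCTC, the PU.1-type site that was searched for.
TYROBP: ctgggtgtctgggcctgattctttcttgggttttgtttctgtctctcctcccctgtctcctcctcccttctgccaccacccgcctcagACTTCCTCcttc
LCP2: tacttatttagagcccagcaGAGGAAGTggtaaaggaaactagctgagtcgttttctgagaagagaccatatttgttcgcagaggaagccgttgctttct
VAV1: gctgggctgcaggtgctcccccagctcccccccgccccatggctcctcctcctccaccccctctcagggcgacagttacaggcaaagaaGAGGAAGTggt
Searched on both strands, GAGGAAGT was in 7 of the 32 member windows (21.9%) and in 909 of all 35116 windows (2.59%). The shorter GAGGAA, which GAGGAAGT contains, was in 19 of the member windows (59.4%) and in 9781 of all windows (27.9%). Several members have more than 1 window, and a match describes letters only.

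The mature miRNAs most tied to blood cells in textbooks are miR-223 and miR-142, which are shown with bases 2 to 8, the seed, in capitals. Their RefSeq sequences (GRCh38.p14) were the same as those in the deposited miRNA table. miR-223-3p lies at chrX:66018937-66018958 on the plus strand and miR-142-3p at chr17:58331245-58331267 on the minus strand.
hsa-miR-223-3p: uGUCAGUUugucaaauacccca
hsa-miR-223-5p: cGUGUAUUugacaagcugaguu
hsa-miR-142-3p: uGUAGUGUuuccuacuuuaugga
hsa-miR-142-5p: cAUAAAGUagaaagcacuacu
The 4 seeds differ from each other, and the arms of a hairpin are counted separately.

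RNA-seq libraries held 40237801 to 48197608 counts and miRNA-seq libraries 3971608 to 5895539. Levels are in CPM (read counts scaled to a common library total, with edgeR's TMM factors), and 3 counts in a library served as the detection floor. Coculture libraries 1 and 2 stood apart on principal component 1 of RNA-seq (66.1 and 60.6, with the other 8 libraries between -31.8 and -0.908). The summed level of 9 fibroblast and endothelial markers reached 145 CPM in coculture library 1, and its range over the controls was 3.47 to 6.98 CPM. Thyroid and epithelial markers summed to 1196 to 1299 CPM in coculture and 1055 to 1188 CPM in control libraries, with PAX8, a thyroid transcription factor, at 624.5 ± 107 and 508 ± 11.2 CPM (SD, n = 6 and 4). The thyroid factor NKX2-1 and the thyrotropin receptor TSHR had 1 count each over all libraries.

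Of the 32 members, 27 passed the filter on low counts and 20 of these were higher in coculture at an adjusted p under 0.05 (edgeR quasi-likelihood test, Benjamini-Hochberg over 15629 genes). No member was lower in edgeR, DESeq2 or limma-voom, and 0 were lower at an unadjusted p under 0.05. Without coculture libraries 1 and 2, 19 were called, and CYTIP no longer passed the filter. Over all genes tested, 1.14% were called higher and 0.186% lower. For 24 of the 32 members every coculture library lay above every control library, a separation found for 2.45% of the genes tested, with 1.17% separated in the other direction. The 24 are the 20 called members and PTPRC, LCP2, CD84 and SASH3, which did not pass the filter. The shares of 2.45% and 1.17% cover only genes that passed it. The median log2 fold change of the 27 members was 5.02, against 0.00818 over all genes. It was 2.88 when the 5 tested members with no control count were set at their lower bound. A member that passes the filter through coculture counts alone had to differ, so these shares describe the list and are not a test of it.

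The 32 members fell into 4 classes by their control level, with limits of 0.1 and 1 CPM that were set after the values were seen. In controls, 18 members averaged under 0.1 CPM, 7 averaged 0.1 to 1 CPM and 6 averaged 1 CPM or more. AIF1 was listed at 0 in every library. All 18 in the lowest class separated the groups fully in CPM, SASH3 by depth alone, since coculture 5 and control 2 each had 1 count. Of these, 14 passed the filter and were called higher. In the middle class 5 of 7 were called, and in the highest class 1 of 6. The classes were cut on the control level, which is itself part of the comparison. Members of the lowest class can pass the filter only through coculture counts, so the calls by class are a description and not a test. Of the promoter windows, GAGGAAGT was in 5 of 19 (26.3%) for the lowest class and in 1 of 4 (25.0%) for the highest. The shorter GAGGAA was in 11 (57.9%) and 3 (75.0%) of these windows. With only 4 windows in the highest class, no difference between the classes can be read.

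**Figure D1:**
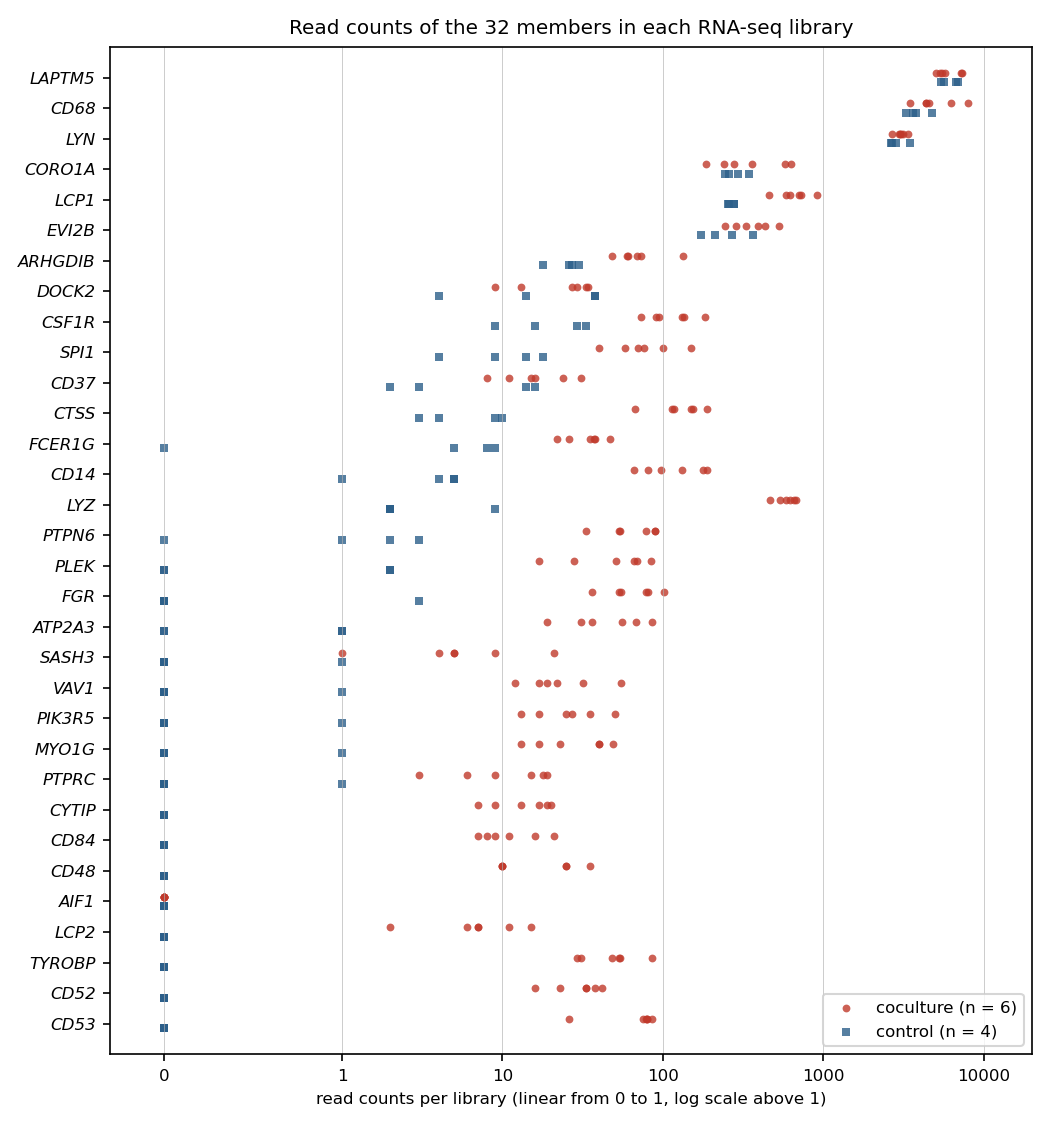
Raw read counts of the members in each RNA-seq library on a log axis, with coculture points (n = 6) above control points (n = 4) for each gene. LYZ reaches 672 counts in coculture and at most 9 in controls, whereas CD68, LAPTM5 and LYN have at least 2658 counts in every library of both groups.

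LYZ was the most abundant transcript among the 18 genes nearly absent from controls. It had 672, 465, 619, 587, 541 and 656 counts in coculture libraries 1 to 6, against 2, 2, 2 and 9 counts in control libraries 1 to 4. Coculture library 2 was the lowest of the 6, and even it lay far above the highest control. LYZ, at chr12:69348354-69354233 in the deposited table, averaged 13.9 ± 2.17 CPM in coculture and 0.0860 ± 0.0782 CPM in controls (SD, n = 6 and 4), a log2 fold change of 7.28 ± 0.35 (SE; edgeR adjusted p = 8.38e-07). Control library 4 held 9 of the 15 control counts, and without it the log2 fold change of LYZ was 8.13.

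CTSS, a lysosomal cysteine protease of antigen-presenting cells, had 154, 67, 114, 150, 118 and 189 counts in coculture libraries 1 to 6, against 10, 9, 3 and 4 in the controls. The groups did not overlap, and coculture library 2 was again lowest. CTSS rose by a log2 fold change of 4.35 ± 0.42 (SE; edgeR adjusted p = 0.000238), with 3.12 ± 1.05 CPM in coculture and 0.150 ± 0.0792 CPM in controls (SD). CD68, a glycoprotein of late endosomes and lysosomes much used as a macrophage marker, had 6277, 8035, 3471, 4371, 4391 and 4584 counts in coculture, against 4744, 3770, 3273 and 3651 in controls. The ranges overlapped, coculture libraries 1 and 2 were the highest, and the difference was not called (edgeR adjusted p = 0.416). LAPTM5, a lysosomal membrane protein of blood cells, had 5041 to 7348 counts in coculture and 5383 to 6904 in controls, and averaged 141 ± 16.2 CPM in coculture and 142 ± 9.94 CPM in controls (SD; adjusted p = 0.973).

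Among the surface receptors, CD14, the co-receptor for bacterial lipopolysaccharide, had 177, 81, 131, 97, 66 and 189 counts in coculture libraries 1 to 6, against 5, 5, 1 and 4 in controls. It rose by a log2 fold change of 5.02 ± 0.47 (SE; edgeR adjusted p = 0.000205), and the libraries that were high for CD14 were coculture 1 and 6. CSF1R, the receptor for macrophage colony-stimulating factor, had 183, 135, 95, 73, 91 and 132 counts in coculture, against 9, 16, 33 and 29 in controls. It rose by 2.43 ± 0.38 on the log2 scale (SE; edgeR adjusted p = 0.00536), and its controls held more counts than those of any other surface gene listed. The pseudogene RPL7P1 overlaps CSF1R on the opposite strand and had 219 ± 34.3 CPM in coculture and 212 ± 33.3 CPM in controls (SD; adjusted p = 0.938). Since the use of strand in counting is not given in the sources used here, reads of such overlapping pairs cannot be told apart. Of the 32 members, 11 overlap another counted gene, among them CD14 (TMCO6), CD53 (LRIF1) and CD52 (UBXN11).

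CD53, a tetraspanin found throughout the white blood cells, had 85, 26, 79, 80, 75 and 80 counts in coculture libraries 1 to 6 and 0 in all 4 controls. Of the coculture libraries, 5 were nearly level and library 2 was far below them. Against the mean floor of 3 counts per control library, CD53 was at least 24.2-fold higher in coculture (edgeR adjusted p = 0.000689). CD52, the small glycoprotein targeted by alemtuzumab, had 42, 23, 33, 33, 16 and 38 counts in coculture and none in controls, at least 10.4-fold higher (adjusted p = 0.000874). CD48, a ligand of natural killer cell receptors, had 10 to 35 counts in coculture and none in controls, at least 6.48-fold higher (adjusted p = 0.00905).

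PTPRC, the common leukocyte antigen, was a sparse transcript here. It had 19, 3, 6, 18, 9 and 15 counts in coculture libraries 1 to 6, against 0, 0, 0 and 1 in controls. It did not pass the filter, and its ratio of summed counts, corrected for depth, was 47.2 (95% counting interval 8.20 to 1890), or at least 3.93-fold higher without control 4. With no filter it was called higher (edgeR adjusted p = 0.00624), as was CD84, a homophilic receptor of the SLAM family (adjusted p = 0.00145). CD84 had 7 to 21 counts in coculture and none in controls, at least 4.11-fold higher. CD37, a tetraspanin best known from B cells, had 31, 15, 8, 24, 16 and 11 counts in coculture, against 16, 14, 2 and 3 in controls. Its groups overlapped and it was not called (adjusted p = 0.607). TEAD2 overlaps CD37 on the opposite strand and averaged 46.1 ± 8.76 CPM in coculture and 40.3 ± 2.69 CPM in controls (SD). The part of TEAD2 reads in the CD37 counts was not tested.

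Of the signalling adaptors, TYROBP had 54, 29, 53, 31, 48 and 85 counts in coculture libraries 1 to 6 and none in controls, at least 17.0-fold higher (edgeR adjusted p = 0.000874). Coculture library 6 stood highest. FCER1G had 37, 35, 38, 26, 22 and 47 counts in coculture, against 9, 0, 8 and 5 in controls. It rose by a log2 fold change of 2.64 ± 0.53 (SE; edgeR adjusted p = 0.0277). Its call was lost without coculture library 6 or without control library 1, 3 or 4, with adjusted p up to 0.127.

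The kinases and phosphatases of receptor signalling split between genes nearly absent from controls and LYN. FGR, a Src-family kinase of myeloid cells, had 81, 36, 55, 53, 78 and 102 counts in coculture libraries 1 to 6, against 3, 0, 0 and 0 in controls, a ratio of 91.0 (95% counting interval 30.9 to 443). It was called higher (edgeR adjusted p = 0.000576). All 3 control counts were in control 1, and without that library FGR was at least 22.4-fold higher. LYN, a related Src-family kinase, had 2679 to 3391 counts in coculture and 2658 to 3452 in controls, and averaged 71.2 ± 2.47 CPM in coculture and 67.3 ± 5.76 CPM in controls (SD; adjusted p = 0.782). PTPN6, which encodes the phosphatase SHP-1, had 78, 33, 54, 90, 53 and 90 counts in coculture, against 3, 1, 2 and 0 in controls. It rose by a log2 fold change of 5.39 ± 0.56 (SE; edgeR adjusted p = 0.000367), with coculture library 2 lowest.

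Downstream of these, VAV1, a guanine nucleotide exchange factor of blood cells, had 32, 17, 22, 19, 12 and 55 counts in coculture, against 0, 0, 0 and 1 in controls. The ratio was 106 (95% counting interval 18.7 to 4207; edgeR adjusted p = 0.0018), and without control 4, which held the only control count, VAV1 was at least 8.76-fold higher. PIK3R5, a regulatory subunit of phosphoinositide 3-kinase gamma, had 13 to 50 counts in coculture and 1 count over all controls, a ratio of 113 (19.9 to 4474; adjusted p = 0.00109), or at least 9.56-fold higher without control 3. LCP2, which encodes the adaptor SLP-76, had 6, 2, 11, 7, 7 and 15 counts in coculture and none in controls, at least 2.74-fold higher. It was too sparse to pass the filter, and with no filter it was called higher (adjusted p = 0.0126). SASH3, a lymphocyte adaptor, had 1 to 21 counts in coculture against at most 1 in a control, a ratio of 30.3 (5.17 to 1225), or at least 2.57-fold higher without control 2, and was not called even with no filter (adjusted p = 0.0711).

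Genes of the actin cytoskeleton behaved differently from each other. PLEK (pleckstrin), a protein kinase C substrate of platelets and leukocytes, had 66, 17, 51, 69, 28 and 84 counts in coculture libraries 1 to 6, against 2, 0, 0 and 2 in controls. It rose by 5.59 ± 0.74 on the log2 scale (SE; edgeR adjusted p = 0.00157). MYO1G, an unconventional myosin of blood cells, had 13 to 49 counts in coculture and 1 count over all controls, a ratio of 123 (95% counting interval 21.7 to 4873; edgeR adjusted p = 0.00103), or at least 9.93-fold higher without control 1. LCP1 (L-plastin), an actin-bundling protein that many carcinoma lines also make, had 710, 619, 588, 918, 460 and 731 counts in coculture, against 277, 255, 279 and 257 in controls. It was the single member at 1 CPM or more in controls that rose, by 1.34 ± 0.17 on the log2 scale (SE; edgeR adjusted p = 0.00134), and its groups did not overlap. Its level averaged 15.7 ± 3.68 CPM in coculture and 6.20 ± 0.435 CPM in controls (SD).

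ARHGDIB, a regulator of the cytoskeleton in blood cells, had 60, 69, 48, 133, 61 and 73 counts in coculture libraries 1 to 6, against 26, 30, 18 and 27 in controls. It rose by 1.57 ± 0.31 on the log2 scale (SE; edgeR adjusted p = 0.0286), and coculture library 4 was well above the rest. Its call was lost without coculture library 6 or without any single control library, with adjusted p up to 0.127, and under limma-voom. CYTIP, which binds the integrin regulator cytohesin-1, had 7 to 20 counts in coculture and none in controls, at least 4.79-fold higher (edgeR adjusted p = 0.00526). It did not pass the filter when coculture library 1, 3, 4 or 6 was left out. DOCK2, which drives leukocyte migration through Rac, had 33, 9, 29, 34, 13 and 27 counts in coculture, against 4, 14, 38 and 38 in controls. It was not called (adjusted p = 0.984), and its 2 highest libraries were controls 3 and 4. FAM196B overlaps DOCK2 on the opposite strand, with 9 to 30 counts in coculture and 19, 35, 47 and 37 in controls 1 to 4. The part of FAM196B reads in the DOCK2 counts was not tested. CORO1A, an actin-binding protein, had 186 to 629 counts in coculture and 244 to 344 in controls, and averaged 8.73 ± 3.85 CPM in coculture and 6.56 ± 0.601 CPM in controls (SD; adjusted p = 0.685), with coculture libraries 1 and 2 the highest.

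SPI1 had 58, 40, 70, 76, 100 and 150 counts in coculture libraries 1 to 6, against 4, 9, 18 and 14 in controls. The groups did not overlap, and SPI1 rose by a log2 fold change of 2.88 ± 0.49 (SE; edgeR adjusted p = 0.00982). Unlike LYZ, whose coculture libraries lay within 1.61-fold of each other, its lowest and highest coculture libraries were 4.29-fold apart. ATP2A3, a calcium pump of the endoplasmic reticulum abundant in blood cells, had 56, 19, 31, 68, 36 and 86 counts in coculture, against 0, 0, 1 and 1 in controls, a ratio of 99.8 (95% counting interval 27.4 to 828; edgeR adjusted p = 0.000874). Without control 3 the ratio of ATP2A3 was 152 (27.1 to 6022). EVI2B, a membrane protein of blood cells that lies within an intron of NF1 on the opposite strand, had 244 to 529 counts in coculture and 172 to 367 in controls, and averaged 8.72 ± 2.66 CPM in coculture and 5.93 ± 2.19 CPM in controls (SD; adjusted p = 0.546).

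Per kb of transcript, the order of levels in coculture libraries was led by genes that the controls also expressed. CD68 stood at 64.7, LAPTM5 at 62.8 and LYN at 12.3 CPM per kb in coculture, against 48.0, 63.5 and 11.6 CPM per kb in controls. Next came LYZ with 9.16 CPM per kb in coculture, against 0.0567 in controls. Among the genes nearly absent from controls it was followed by TYROBP at 2.004, CD14 at 1.76, CD52 at 1.43 and CD53 at 1.07 CPM per kb, while PTPRC stood at 0.0509 CPM per kb.

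AIF1, an actin-binding protein of macrophages and microglia, was listed at 0 in all 10 libraries, and so were many genes beside it. Within 250000 bases on each side of AIF1 on chromosome 6, 24 of 37 protein-coding genes (64.9%) had no count in any library, against 3021 of 20148 (14.99%) over the whole table. The 24 include DDX39B, an RNA helicase of mRNA export, LSM2, a core splicing factor, and VARS, the valyl-tRNA synthetase, all of which every cell uses. A listed 0 in this stretch therefore gives no level of AIF1.

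The 18 genes nearly absent from controls tended to be low and high in the same coculture libraries. Their summed counts were 1490, 822, 1237, 1312, 1029 and 1656 in coculture libraries 1 to 6, against 16, 9, 7 and 18 in controls 1 to 4. When each gene was divided by its own mean over the 6 libraries, the median relative level was 1.16, 0.515, 0.915, 1.11, 0.676 and 1.49 in libraries 1 to 6. All 18 genes lay below their own mean in coculture library 2, and 17 of 18 lay above it in library 6. The lowest library was coculture 2 for 11 genes and coculture 5 for the other 7. The highest was coculture 6 for 12, coculture 1 for 3 and coculture 4 for 3. In bulk libraries, fewer cells of a type and less RNA per cell cannot be told apart.

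**Figure D2:**
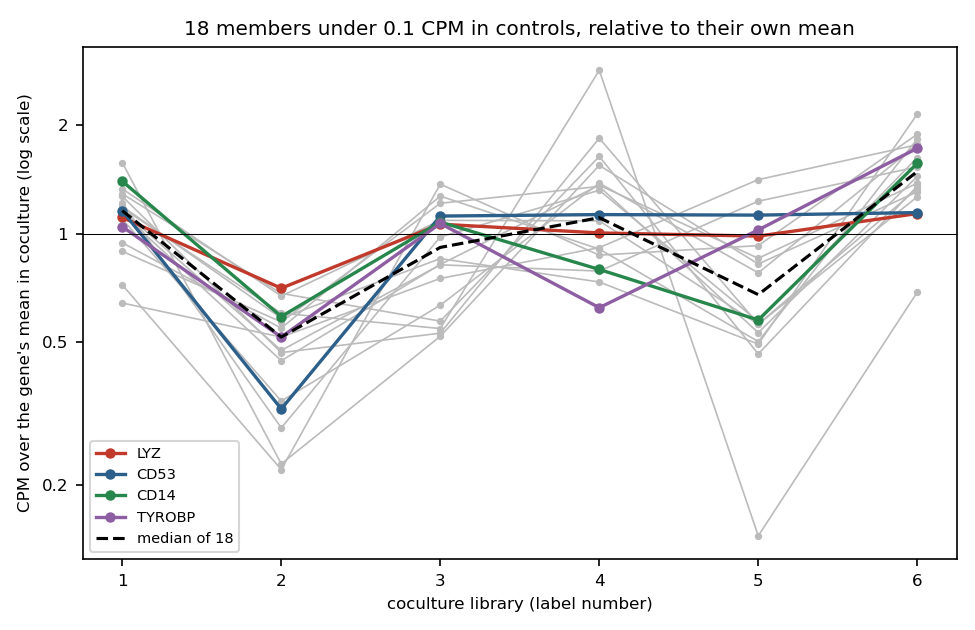
Level of each of the 18 members under 0.1 CPM in controls in the 6 coculture libraries, divided by that gene's mean over the 6. Lines join the values of a gene and carry no order; all 18 lie below 1 in coculture library 2, and 17 of 18 lie above 1 in coculture library 6.

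LYZ served as the reference because, in earlier results of these data, it had most counts among the genes nearly absent from controls. Correlations with LYZ over the 6 coculture libraries, on the scale of log2(CPM + 0.1), were computed for the 30 other members with counts. Of these, 26 were positive, with a median Pearson r of 0.64. For the 17 other genes under 0.1 CPM in controls all 17 were positive, with a median of 0.76 and a range of 0.16 to 0.95. For the 6 members at 1 CPM or more in controls 2 were positive, with a median of -0.11 and a range of -0.62 (CD68) to 0.41 (LCP1). In exact two-sided permutation tests over 6 libraries, 10 of the 30 Pearson correlations had a raw p under 0.05 and none an adjusted p under 0.05 (Benjamini-Hochberg over the 30, lowest 0.12). For Spearman's rho 5 had a raw p under 0.05 and none an adjusted p under 0.05 (lowest 0.2). With 6 libraries, a single member could not pass this adjustment by rho even if its ranks matched those of LYZ fully. That none passed therefore says little about whether the members move together.

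By Pearson r, the closest companions of LYZ were CD53, CTSS and PLEK. CD53 had r = 0.95 (exact permutation p = 0.0194, adjusted 0.12) and rho = 0.77 (p = 0.103, adjusted 0.34). CTSS had r = 0.93 (p = 0.0264, adjusted 0.12) and rho = 0.71 (p = 0.136, adjusted 0.34). PLEK had r = 0.91 (p = 0.0167, adjusted 0.12) and rho = 0.83 (p = 0.0583, adjusted 0.292). Library 2 carried much of this. Without the 2 libraries farthest from the LYZ median, coculture 2 and 6, r was 0.65 for CD53, 0.13 for CTSS and 0.54 for PLEK. Over the 17 genes the median r was 0.28 with 14 positive without those 2 libraries, and 0.49 with all 17 positive without coculture library 2 alone. CD14 kept its relation best, at r = 0.76 over 6 libraries (exact permutation p = 0.0222, adjusted 0.12; rho = 0.94, p = 0.0167, adjusted 0.2) and 0.98 over the remaining 4. VAV1 had the same rho and p, with r = 0.63 over 6 libraries (exact permutation p = 0.193, adjusted 0.358) and 0.95 over the remaining 4. CD14 and VAV1 had the highest rho of all members compared. The libraries share their total counts as the divisor, so these values are a description.

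Among all 18 genes nearly absent from controls there were 153 pairs, and 149 had a positive r, with a median of 0.66. The range was -0.34 to 0.98, with PTPN6 and ATP2A3 the closest pair. Without coculture library 2, 133 pairs stayed positive and the median was 0.52.

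**Figure D3:**
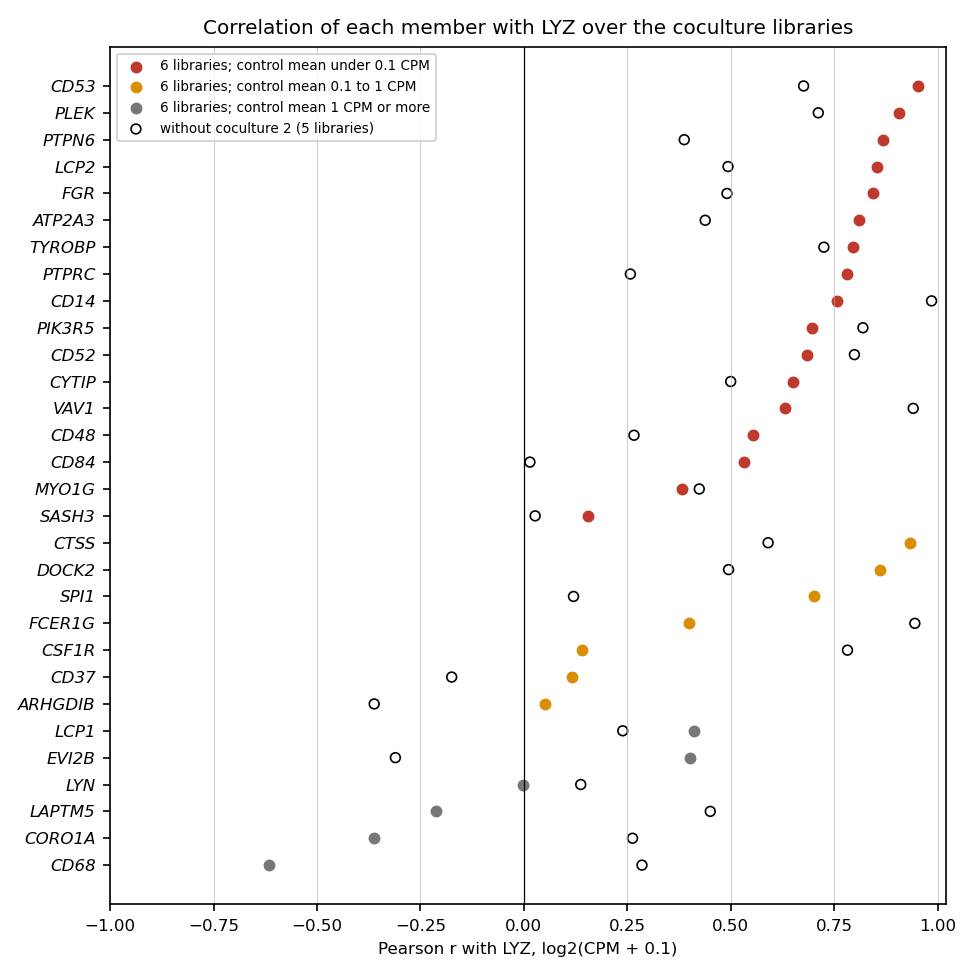
Pearson r with LYZ over the 6 coculture libraries for each of the 30 other members with counts, on log2(CPM + 0.1), coloured by the gene's control level. All 17 genes under 0.1 CPM in controls lie above 0, while those at 1 CPM or more lie between -0.62 and 0.41.

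Ratios among members held less firmly than the shared direction. LYZ made up 45.1, 56.6, 50.04, 44.7, 52.6 and 39.6% of the summed counts of the 18 genes in coculture libraries 1 to 6. The exact 95% binomial intervals were 53.1 to 59.99% for library 2 and 37.2 to 42.0% for library 6, so they did not overlap. Intervals and floors cover counting error only, since reads without molecular identifiers are not independent molecules. The pairs of genes that follow were chosen after their values were seen and carry no test.

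CD53 had 0.126, 0.0559, 0.128, 0.136, 0.139 and 0.122 counts per count of LYZ in coculture libraries 1 to 6. The 5 libraries other than coculture 2 agree within their counting intervals, and the interval of coculture 2, 0.0361 to 0.0830, lies below all of theirs. CD14 had 0.263, 0.174, 0.212, 0.165, 0.122 and 0.288 counts per count of LYZ, lowest in coculture 5 and highest in coculture 6. TYROBP per LYZ ran from 0.0528 in coculture 4 to 0.130 in coculture 6, with intervals of 0.0356 to 0.0758 and 0.102 to 0.163 that did not overlap.

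The raw counts of CSF1R were not in step with those of CD14, although both genes mark monocytes and macrophages. CSF1R counts per count of CD14 were 1.03, 1.67, 0.725, 0.753, 1.38 and 0.698 in coculture libraries 1 to 6. The values for coculture 2 (1.26 to 2.22) and coculture 6 (0.555 to 0.877) did not overlap in their counting intervals. SPI1 per CD53 ranged from 0.682 in coculture 1 to 1.88 in coculture 6, again with intervals that did not overlap. TYROBP per FCER1G, both adaptors of activating receptors, lay between 0.829 in coculture 2 and 2.18 in coculture 5, with intervals that overlapped (0.489 to 1.40 and 1.29 to 3.80). No control level was taken off in these ratios. In control libraries CSF1R had 9 to 33 counts, SPI1 4 to 18 and FCER1G 0 to 9, against 1 to 5 for CD14 and 0 for CD53 and TYROBP. The part of that control level, or of reads from the overlapping RPL7P1, in the ratios was not tested.

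Over the 17 genes under 0.1 CPM in controls other than LYZ, the ratio to LYZ had a median coefficient of variation of 41.6% over the 6 libraries, with a range of 22.5 to 94.9%. The CPM values themselves had a median of 48.9%, and counting alone would give a median of 20.8%. In all 17 genes the ratio varied less than the CPM and more than counting error. The excess over counting error was small for some, such as CYTIP (32.1% against 28.9%) and CD52 (22.5% against 19.5%). A coefficient from 6 libraries cannot tell such values apart. LYZ itself had a coefficient of variation of 15.6% in CPM, the lowest of the 18 genes. With PTPRC as the denominator, which had only 3 to 19 counts per coculture library, the median was 62.1%.

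**Figure D4:**
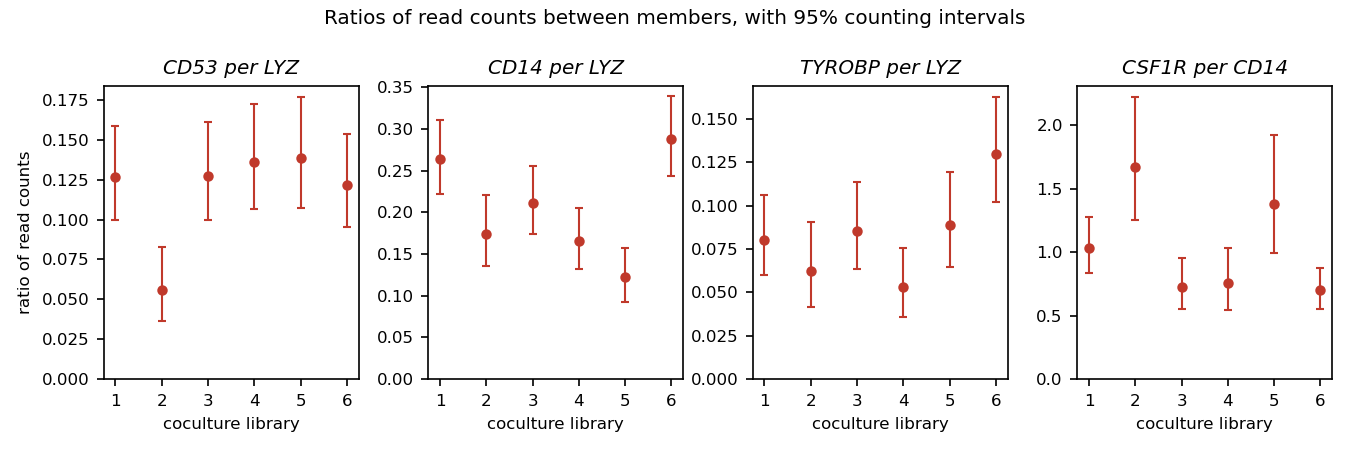
Ratios of raw counts between pairs of members in each coculture library, with 95% counting intervals. CD53 per LYZ is level in 5 libraries and drops to 0.0559 in coculture 2, whereas CSF1R per CD14 spans 0.698 to 1.67.

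Other genes of the white blood cell programme, outside the 32, were read from a second list. In that list of 45 such genes 25 were tested, 16 were higher and none lower. The shares over all genes tested were 1.14% higher and 0.186% lower. As with the members, genes that pass the filter through coculture counts alone had to differ. Calls in this list and in those that follow are therefore a description. The called genes with the highest coculture level were ITGB2, CYBB and LSP1. ITGB2 encodes the beta chain of leukocyte integrins and averaged 11.2 ± 2.53 CPM in coculture and 1.49 ± 0.263 CPM in controls (SD), a log2 fold change of 2.90 ± 0.21 (SE). CYBB, the catalytic subunit of the phagocyte NADPH oxidase, averaged 5.80 ± 2.26 CPM and 0.0735 ± 0.0546 CPM, 6.22 ± 0.50 on the log2 scale, or 6.83 without control library 1. LSP1, an actin-binding protein of leukocytes, rose by 1.70 ± 0.30 on the log2 scale (SE; edgeR adjusted p = 0.0128), and its call was lost without control library 1, 2 or 3 (adjusted p up to 0.0651).

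Markers of single blood cell types were mostly too sparse to test. Of 28 neutrophil genes 5 were tested and 2 were higher, namely ITGAM, an integrin chain of neutrophils and monocytes, with a ratio of 66.7 (95% counting interval 22.6 to 326), and S100A9, a calcium-binding protein of the same cells, with a ratio of 158 (28.2 to 6284), or at least 13.0-fold higher without control 1. FCGR3B, CXCR1, CXCR2 and ELANE, which mark neutrophils and their precursors, had 0 counts in all libraries. The 26 neutrophil genes under 1 CPM in controls summed to 1.45 to 5.05 CPM in coculture and 1.01 to 1.69 CPM in controls. Of 24 monocyte and macrophage genes 3 were tested and MRC1, the mannose receptor, was higher, with 127 counts over the coculture libraries and none in controls (at least 7.29-fold higher). The 23 genes of that list under 1 CPM in controls summed to 1.81 to 2.98 CPM in coculture and 0.135 to 0.741 CPM in controls, with C1QA, MS4A6A and FOLR2 at 0 in all libraries.

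Of 26 T and natural killer cell genes 2 were tested, and IL7R, the interleukin-7 receptor, was higher by 2.18 ± 0.45 on the log2 scale (SE; edgeR adjusted p = 0.0353). That call was lost in 7 of the 10 fits that left out a library, those without coculture 4, 5 or 6 or any single control, with adjusted p up to 0.129. The 25 genes of that list under 1 CPM in controls summed to 0.906 to 3.47 CPM in coculture and 0.158 to 0.461 CPM in controls, with TRAC at 0 in all libraries. No gene was called among 15 B and plasma cell genes (4 tested), 9 mast cell, basophil and eosinophil genes (1 tested), 9 fibroblast and endothelial genes (4 tested) or 12 thyroid and epithelial genes (8 tested), and none of 14 erythroid and platelet genes passed the filter. The part of any of these cell types in the members' levels was not tested.

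The miRNA libraries gave a second view of blood-cell RNA. Of 797 miRNAs tested, 1.13% were called higher in coculture and 0.125% lower. None of the 9 listed blood-cell miRNAs was called by edgeR, although 3 were higher and 2 lower at an unadjusted p under 0.05. DESeq2 called miR-223-5p alone, and limma-voom called miR-223-3p and miR-223-5p. miR-223-3p had 194, 178, 332, 375, 202 and 345 counts in coculture libraries 1 to 6, against 16, 16, 17 and 296 in controls 1 to 4. Controls 1 to 3 were far below every coculture library, and control 4 lay among the coculture libraries. The level averaged 53.9 ± 19.1 CPM in coculture and 15.8 ± 25.4 CPM in controls (SD), and the log2 fold change was 1.76 ± 0.88 (SE; edgeR adjusted p = 0.506).

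Control library 4 also lay above the other controls for miR-142 and miR-223-5p. miR-142-3p had 140 to 555 counts in coculture, against 21, 18, 15 and 332 in controls 1 to 4. miR-142-5p had 210 to 1085 counts in coculture, against 96, 115, 108 and 2548 in controls, and control 4 was the highest of all 10 libraries. miR-223-5p had 22 to 40 counts in coculture, against 0, 1, 1 and 17 in controls, and no overlap between the groups, which held for 1.88% of miRNAs in that direction (log2 fold change 2.59 ± 0.64, SE; edgeR adjusted p = 0.0846). The erythroid miR-451a and miR-144-3p stood highest in control 4, at 23129 and 273 CPM, 23.4 and 26.3 times their mean over controls 1 to 3, and they were not called (adjusted p = 0.259 and 0.235). The same multiple was 17.0 for miR-223-3p, 22.5 for miR-142-5p and 8.57 for miR-150-5p, a lymphocyte miRNA (not called, adjusted p = 0.351). It was 0.869 for miR-155-5p and 1.13 for miR-342-3p, both also made outside the blood and not called (adjusted p = 0.32 and 0.594).

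Without control library 4, 5 of the 9 miRNAs were called higher, with 1.44% of 834 miRNAs called in that fit. Control 4 is singled out here because of its levels of these same miRNAs, so the calls and p-values without it are a description. miR-223-3p then had a log2 fold change of 4.12 ± 0.36 (SE; edgeR adjusted p = 5.83e-05) and miR-142-3p one of 4.18 ± 0.49 (adjusted p = 0.000508). miR-223-5p stood at 5.21 ± 0.52 (adjusted p = 0.000116) and miR-150-5p at 4.32 ± 0.95 (adjusted p = 0.0498). For miR-451a and miR-144-3p the log2 fold changes were -3.41 and -3.69 over all libraries and -0.65 and -0.76 without control 4, not called either way. For miR-142-5p the direction turned, with -0.44 ± 0.97 over all libraries (adjusted p = 0.862) and 2.27 ± 0.44 without control 4 (adjusted p = 0.0202). In RNA-seq the library numbered control 4 had 18 counts over the 18 near-absent genes, 9 of them of LYZ, close to the 7 to 16 of the other controls. The labels do not say that RNA-seq and miRNA-seq libraries of the same number came from the same culture.

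**Figure D5:**
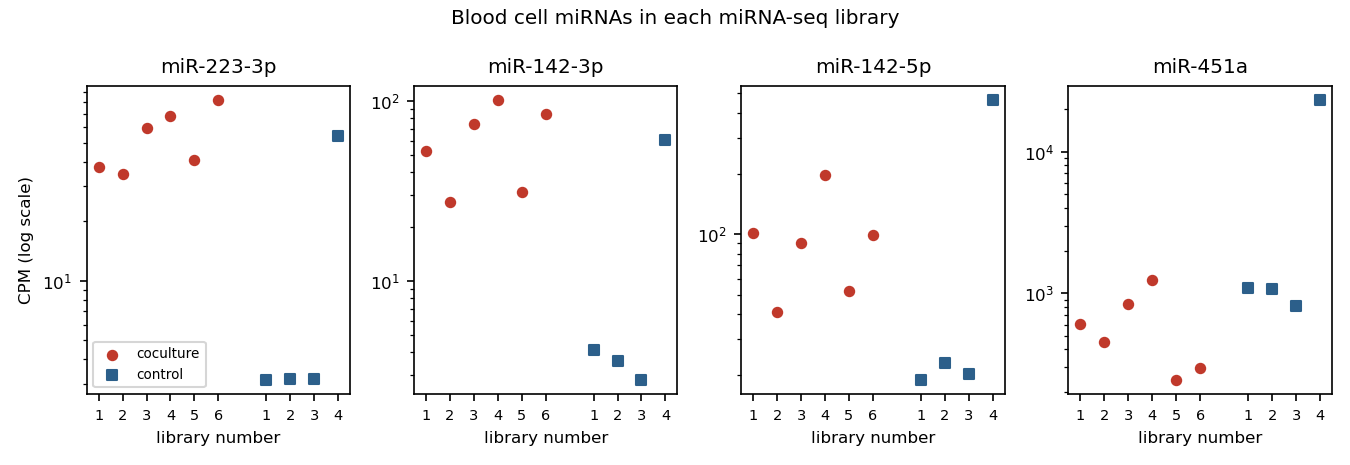
Levels of a selection of the 9 listed blood-cell miRNAs in each miRNA-seq library in CPM on a log axis, with coculture (n = 6) beside control (n = 4). Control library 4 lies with or above the coculture libraries for miR-223-3p, miR-142-3p and miR-142-5p, while controls 1 to 3 lie below them.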

How the data were processed

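RNA-seq and miRNA-seq of TPC-1 cells (6 coculture and 4 control libraries each) were read as tables of raw read counts per gene and per mature miRNA, as the authors deposited them. The submitters' processing notes name BWA, HISAT2 2.0.4 and the build GRCh38.p10. No source used here gives the counting tool, the annotation or whether strand was used. Members, lists and alternatives were chosen with earlier results of these data known.

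Groups came from the treatment labels. Tests used edgeR 4.0.16 in R 4.3.3 (TMM, filterByExpr by group, robust quasi-likelihood fit over all genes, Benjamini-Hochberg adjustment, threshold 0.05). Alternatives were DESeq2 1.42.0, limma-voom (limma 3.58.1), DESeq2 size factors, no filter, each library left out, coculture 1 and 2 left out, and the replicate number as a block. Genes with a control mean under 1 CPM and a called rise were given by library when among the 10 highest in coculture. Of each other list, the 3 called genes of highest coculture level and up to 4 markers at 0 were named, as was every listed miRNA passing the filter. Other members were named to account for all 32. A member with 0 control counts is given against 3 counts per library, and one with 1 to 3 as a ratio with its 95% exact counting interval. The lowest chi-square per degree of freedom between libraries of a group was 6.86 in RNA-seq and 24.6 in miRNA-seq, so every library was counted. The fits were tested on simulated data. No value column was left unused.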

Additional observations from a re-analysis of the deposited data

Results flagged for a closer look

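Among 71 groups of 4 to 6 libraries whose highest library had at least 10 counts, 11 held a library set apart from the rest by Dixon's 95% criterion, the gap to the nearest other library divided by the whole range. Chance gives about 1 in 20. The causes were not tested.

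In RNA-seq, coculture library 2 was low for LYZ, at 9.79 CPM against 13.7 to 15.8 CPM in the other coculture libraries (0.646), and for CD53, at 0.547 CPM against 1.88 to 1.95 CPM (0.954). Coculture library 4 was high for ARHGDIB, at 3.16 CPM against 1.14 to 1.76 CPM (0.696). In miRNA-seq, coculture library 4 was high for miR-150-5p, at 70.2 CPM against 5.08 to 22.05 CPM (0.739).

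The other 7 all concern control library 4 of miRNA-seq, which was high for miR-223-3p at 53.9 CPM (0.999), miR-223-5p at 3.096 CPM (0.936), miR-142-3p at 60.5 CPM (0.977), miR-142-5p at 464 CPM (0.991), miR-150-5p at 10.02 CPM (0.928), miR-451a at 23129 CPM (0.987) and miR-144-3p at 273 CPM (0.982).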

How the results depend on the processing

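Of the 20 members called higher, 12 kept their call under all 16 alternatives, among them LYZ, CD53, CD14 and CTSS. The count ranged from 17 to 20 with a library left out. Replicate numbers 1 to 4 are shared by both groups, but not every number met the limit of 0.1 for pairing: deviations from the group means correlated at -0.0825 to 0.350 (RNA-seq) or -0.0343 to 0.366 (miRNA-seq), and 4 of 8 RNA-seq and 5 of 8 miRNA-seq libraries correlated best with their own number. With the replicate number as a block, 12 members, 100 genes in all higher (178 without it) and 10 lower (29 without it) were called, and of the miRNAs 0 lower and 1 of the blood-cell list higher. The member calls lost with the block (edgeR adjusted p) were CD52 (0.0821), TYROBP (0.0615), FCER1G (0.145), CSF1R (0.131), ARHGDIB (0.116), SPI1 (0.0535), CD48 (0.116) and CYTIP (0.14). In the other lists it called 6 of the 45 leukocyte genes (16 without it), and 0 in the monocyte list, where MRC1 had been called, and in the T-cell list, where IL7R had been called. With a library left out, genes called higher ranged from 112 to 204 and lower from 4 to 36, miRNAs higher from 5 to 12 and lower from 0 to 1, and blood-cell miRNAs from 0 to 5. DESeq2 called 333 genes higher and 106 lower, 3 miRNAs lower and 1 blood-cell miRNA higher; limma-voom called 0 miRNAs lower and 2 blood-cell miRNAs higher. DESeq2 size factors gave 0 miRNAs lower and no filter gave 4. Without coculture 1 and 2, 112 genes and 0 miRNAs were lower. The median variation of the ratio, 41.6%, was 62.1% with PTPRC as denominator and 34.2 to 42.4% with a library left out.

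Among members that were not called, 3 changed sign on the log2 scale: LAPTM5 (-0.02) to 0.044 with the block and -0.073 to 0.030 with a library left out, CORO1A (0.41) to -0.042 without coculture 1 and 2, and DOCK2 (0.05) to between -0.32 and 0.41 with a library left out. miR-142-5p (-0.44) changed to 0.92 under limma-voom, 1.08 with the block, and between -0.80 and 2.27 with a library left out. These causes were not tested. The floor of 3 counts limits genes such as PTPRC, LCP2 and SASH3.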
